A study of Mus musculus with 24 samples.

Results

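MiR-191 and miR-425 are microRNAs whose genes lie side by side on mouse chromosome 9. They were followed here through serum exosomes, hepatocyte exosomes, hepatocytes and liver of an acetaminophen injury study. The mature rows mmu-miR-191-5p and mmu-miR-425-5p were 2 of the 1915 rows of the mature table, and mmu-mir-191 and mmu-mir-425 were 2 of the 1186 rows of the hairpin table. All 4 rows were found by name. The pair was chosen by a measured value, the high count of miR-191 in liver, so its liver level is given as a description without a test. Acetaminophen is a painkiller that injures hepatocytes at high dose, and granulocyte colony-stimulating factor (G-CSF) drives the output of granulocytes from bone marrow.

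The 24 mouse samples formed 12 conditions, the 4 materials each as untreated control, with acetaminophen, and with acetaminophen plus G-CSF. For serum exosomes and liver the labels give acetaminophen at 500 mg/kg, with G-CSF at 100 µg/kg. For hepatocytes and the exosomes they released they give acetaminophen at 20 mM, with G-CSF at 1 µg/ml. Not given in the sources used here were times after treatment, strain, age and the number of animals or cultures per sample. Each deposited column combined the libraries of 1 condition, so no condition had a replicate, and a ratio of 2 columns compares those columns only. Of the 12 columns, 7 held more than 1000 mature counts, from 4450 to 49330. Each treated serum column and each hepatocyte exosome column held 47 to 692. Titles and treatment characteristics disagreed on which of the treated serum columns had G-CSF, and the characteristic was followed. All 3 hepatocyte markers (miR-122-5p, miR-192-5p and miR-194-5p) had counts in each hepatocyte and liver column, where they summed to 13.9% to 42.0% of the mature counts.

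A microRNA is cut from a hairpin precursor that yields a 5′ arm (5p) and a 3′ arm (3p). The arm loaded into Argonaute pairs with messenger RNAs through its seed, bases 2 to 8, and lowers their translation and stability. Both hairpins are made from a shared primary transcript near the Dalrd3 gene. MiR-191-5p is widely expressed and often serves as a reference in quantitative PCR, and miR-425-5p is expressed at a lower level in many tissues.

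The mature sequences are shown because the pair shares a transcript but not a seed. The seed is in capitals, and the sequences and positions are those of RefSeq on GRCm38.p6.
mmu-miR-191-5p: cAACGGAAucccaaaagcagcug
mmu-miR-425-5p: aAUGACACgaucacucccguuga
mmu-miR-489-3p: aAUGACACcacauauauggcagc
The 5p arms of miR-191 and miR-425 had the same base at 5 positions of 23. No other mature miRNA of the sequence table shared the seed of miR-191-5p. The seed of miR-425-5p was found in 1 other, mmu-miR-489-3p, from chr6:3721922-3721944 on the minus strand.

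In the hairpins both annotated arms are in capitals.
mmu-mir-191: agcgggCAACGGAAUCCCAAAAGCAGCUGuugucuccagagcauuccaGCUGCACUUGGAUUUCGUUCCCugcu
mmu-mir-425: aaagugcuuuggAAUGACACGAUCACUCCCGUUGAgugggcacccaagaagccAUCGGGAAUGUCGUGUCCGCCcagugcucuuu
The mir-191 hairpin, 74 bases long, lies at chr9:108568319-108568392 and the mir-425 hairpin, 85 bases long, at chr9:108568777-108568861, both on the plus strand. They are 384 bases apart. In the GENCODE annotation of the same build both lie in exonic sequence of the long noncoding RNA gene 4833445I07Rik (chr9:108567533-108569174, plus strand), and the Dalrd3 gene starts 1024 bases after the end of mir-425. Gm24083, a further annotated miRNA gene on the minus strand (chr9:108568295-108568414), overlaps mir-191. No other of 1004 RefSeq mouse hairpins shared a stretch of 16 bases with either hairpin, so the sequence table held no near copy of them.

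MiR-191-5p was the more abundant member in each of the 7 columns in which the pair had counts. In liver it had 2595.5 counts in the control, 188 with acetaminophen and 1441.3 with both agents. These were 5.26% (95% Wilson interval 5.07 to 5.46), 0.955% (0.828 to 1.10) and 3.30% (3.13 to 3.47) of the mature counts. It ranked 2 in control liver, behind miR-122-5p, the main miRNA of hepatocytes. Its rank was 21 with acetaminophen and 4 with G-CSF added. The 3 intervals did not overlap, and they cover counting error only.

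In hepatocytes miR-191-5p had 611, 141 and 85 counts in the same order of treatments, or 2.29% (2.11 to 2.47), 2.65% (2.25 to 3.11) and 1.91% (1.55 to 2.36). Its ranks were 7, 10 and 9. The interval of the control overlapped those of both treatments, unlike in liver. By share, the order of the 7 columns from the top was control liver, liver with G-CSF added, hepatocytes with acetaminophen, control hepatocytes, hepatocytes with G-CSF added, acetaminophen liver and control serum exosomes. Neighbours among the 3 hepatocyte columns had overlapping intervals.

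MiR-425-5p had 125, 17 and 89.5 counts in liver and 50, 4 and 7 in hepatocytes, in the order control, acetaminophen and acetaminophen plus G-CSF. Its liver shares were 0.253%, 0.0863% and 0.205%, and its hepatocyte shares 0.187%, 0.0751% and 0.157%. The acetaminophen column was thus the lowest of the 3 in both materials. In hepatocytes that rested on 4 counts, and its interval reached those of both other columns.

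The hairpin table gave the same libraries with more counts, so it is a second count of the same material and not a replicate. The mir-191 hairpin had 46049.6, 954.6 and 23943.8 counts in liver (3.52%, 0.858% and 2.19% of the hairpin counts) and 12923.3, 2843.6 and 1279.3 in hepatocytes (1.54%, 1.58% and 0.918%). The mir-425 hairpin had 5583.5, 218 and 3499 counts in liver (0.427%, 0.196% and 0.319%) and 1887.5, 223.5 and 198 in hepatocytes (0.225%, 0.124% and 0.142%). In liver both hairpins were lowest with acetaminophen, as the mature arms were. In hepatocytes mir-191 was lowest with G-CSF added, and mir-425 was low in both treated columns.

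**Figure D1:**
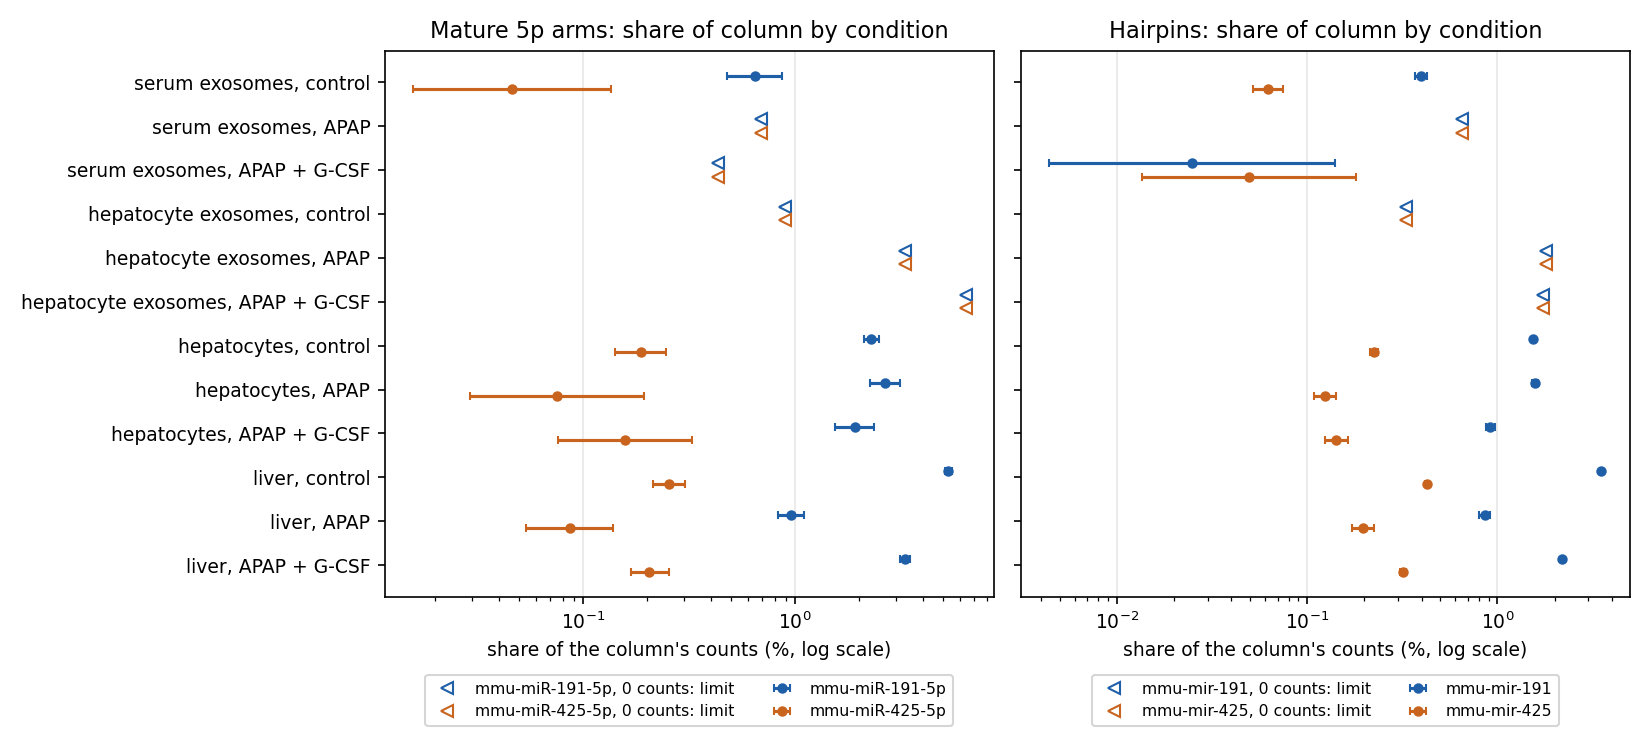
Share of each column's counts taken by miR-191 (blue) and miR-425 (orange), mature 5p arms on the left and hairpins on the right, on log axes. Points carry 95% Wilson intervals and open triangles mark the limit of 3 counts where a column had 0; miR-191 lay above miR-425 in the 7 deep columns, and both dipped in acetaminophen liver.

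Nearly all counts of the pair came from the 5p arms. MiR-191-3p had 0 counts in all 12 columns, against 5103.8 counts of miR-191-5p in the 7 deep columns, which allows a share of up to 0.0588% of the arms' counts. MiR-425-3p had 11.5 counts in those columns, 2, 1 and 0 in hepatocytes and 6, 1 and 1.5 in liver, or 3.75% of the 307 counts of both arms (95% Wilson interval 2.25 to 6.71). Both 3p arms were too few to compare between treatments.

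Acetaminophen liver had less of both members than control liver. A miRNA was called different between 2 columns when it had at least 10 counts in 1 of them, a ratio of at least 2-fold after scaling by trimmed mean of M values (TMM), and an exact 95% counting interval that excluded equality. MiR-191-5p was 4.93-fold lower (interval 4.25 to 5.75) and miR-425-5p 2.63-fold lower (1.58 to 4.65). Thus 2 of 2 were called, where 27.3% of the 161 measured miRNAs were called lower. The high liver count of miR-191 chose the pair, so its ratio to control liver is a description. Both members come from 1 locus, so these are not independent calls. The hairpins were 4.60-fold lower for mir-191 (4.32 to 4.91) and 2.44-fold lower for mir-425 (2.13 to 2.81), both called, where 18.9% of 439 hairpins were called lower. The median log2 ratio over all measured miRNAs was -0.25 for mature rows and 0.22 for hairpins, against -2.30 for miR-191-5p and -1.39 for miR-425-5p. Of the measured mature miRNAs, 9.94% had a lower ratio than miR-191-5p and 21.1% a lower ratio than miR-425-5p.

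Other features of the acetaminophen liver column moved too, and their part in the lower counts of the pair was not tested. Of all 161 measured miRNAs, 23.0% were called higher than in control liver and 27.3% lower, and marker calls are to be read beside these shares. The red blood cell markers miR-451a, miR-144-3p and miR-486a-5p, miRNAs of the erythroid lineage, were all called higher than in control liver (3 of 3) and summed to 6.23% of the mature counts, against 0.193% in control liver and 1.09% with G-CSF added. In hepatocytes they held at most 1 count a column. Of 3 leukocyte markers 2 were called higher, with summed shares of 0.172%, 0.617% and 0.459% in control, acetaminophen and G-CSF liver. The biliary and epithelial markers miR-200b-3p and miR-31-5p had the order of the pair in liver, with summed shares of 1.70%, 0.306% and 1.62%. Only 1 of them was measured, and it was called lower with acetaminophen. Hepatocytes held only 1 of these 2 markers, with 325, 8 and 2 counts, or 1.22% of the control column. There too the 1 measured was called lower with acetaminophen. Between control liver and control hepatocytes its log2 ratio was 0.047, without a call. Of 4 stellate and mesenchymal markers 2 were called higher and 1 lower in acetaminophen liver, and the endothelial miR-126a-3p was not called. The hepatocyte markers summed to 27.3% in control and 42.0% in acetaminophen liver, mostly miR-122-5p at 23.6% and 40.1%. After TMM scaling none of these 3 was called higher and 1 was called lower, with a median log2 ratio of -0.45, and miR-192-5p and miR-194-5p together made up 3.66% of the counts in control and 1.85% in acetaminophen liver. Without miR-122-5p in the total, miR-191-5p made up 6.89% of control liver and 1.59% of acetaminophen liver. In bulk tissue, fewer cells of a type and less of the miRNA per cell cannot be told apart.

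The column also had an unusual relation between the tables. Hairpin counts exceeded mature counts 5.65-fold in acetaminophen liver and 25.1- to 33.7-fold in the other 6 deep columns. For the pair the same was seen. There were 5.08 mir-191 hairpin counts per mature count in acetaminophen liver and 15.1 to 21.2 in the other 6, and for mir-425, both arms added, 12.1 and 28.3 to 44.7. After scaling within each table, the ratios of acetaminophen to control liver were 4.93 and 4.60 for miR-191 and 2.63 and 2.44 for miR-425, control over acetaminophen, so the tables gave like values.

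Liver of mice that received G-CSF with acetaminophen had more of the pair than liver with acetaminophen alone. MiR-191-5p was 2.78-fold higher (2.38 to 3.25) and was called, and miR-425-5p was 1.91-fold higher (1.13 to 3.44), under the 2-fold limit. Thus 1 of 2 members was called, where 17.2% of 163 measured miRNAs were called higher. Of the hairpins, mir-191 was 2.66-fold higher (2.49 to 2.84) and called, and mir-425 was 1.70-fold higher (1.49 to 1.96) and not called, where 17.4% of 380 hairpins were called higher. By column totals miR-425-5p passed the limit as well, at a log2 ratio of 1.25.

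With G-CSF added, both members were still below control liver, by less than 2-fold. MiR-191-5p was 1.78-fold lower (1.67 to 1.90), miR-425-5p 1.38-fold lower (1.04 to 1.82), mir-191 1.73-fold lower and mir-425 1.44-fold lower. None of these 4 was called, where 28.5% of 172 mature miRNAs and 40.4% of 465 hairpins were called in either direction. Both comparisons with acetaminophen liver share that column, so its properties enter each of them. The comparison of G-CSF liver with control liver does not use it, except in the scaling.

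In hepatocytes with acetaminophen miR-191 was under the 2-fold limit in both tables, and the ratios of miR-425 were near those of liver, with a call for the hairpin alone. MiR-191-5p was 1.22-fold higher than control (1.00 to 1.46) and miR-425-5p 2.38-fold lower, with an interval from 0.872 to 9.06 that includes equality. Thus 0 of 2 were called, where 27.0% of 100 measured miRNAs were called lower. The mir-191 hairpin was 1.19-fold lower (1.14 to 1.24) and not called, and the mir-425 hairpin was 2.22-fold lower (1.92 to 2.55) and called, where 31.6% of 307 hairpins were called lower. MiR-191 therefore had opposite directions in the tables, and both lay close to equality. With nearly 1 hairpin in 3 called lower in that column, the mir-425 call is nothing particular to the locus.

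Adding G-CSF to acetaminophen gave no called difference of the pair in hepatocytes. MiR-191-5p was 1.30-fold lower than with acetaminophen alone (0.985 to 1.72), and miR-425-5p had under 10 counts in both columns and was not measured. The mir-191 hairpin was 1.58-fold lower (1.47 to 1.68) and mir-425 1.25-fold higher (1.03 to 1.52). In this comparison 27.7% of 47 mature miRNAs and 22.1% of 235 hairpins were called in either direction. Against control, hepatocytes with both agents had 1.07-fold lower miR-191-5p, 1.06-fold lower miR-425-5p, 1.88-fold lower mir-191 and 1.77-fold lower mir-425, none called, where 52.0% of 100 mature miRNAs and 59.0% of 293 hairpins were called. With size factors from DESeq2 in place of TMM factors, both mature members were above control in that comparison, at log2 ratios of 0.56 and 0.57, so no direction is given for them.

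**Figure D2:**
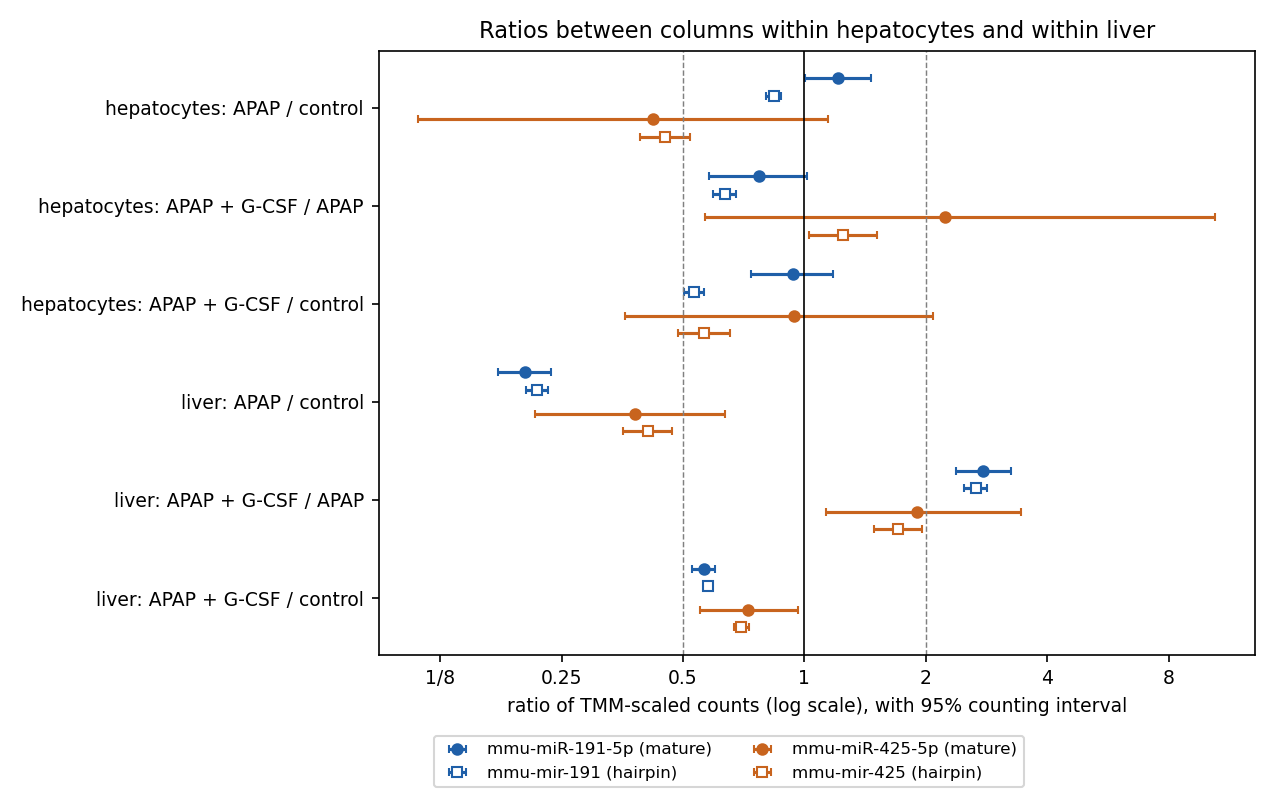
Ratios of TMM-scaled counts between columns of 1 material, on a log axis, with exact 95% counting intervals; filled circles are mature 5p arms, open squares hairpins, and dashed lines mark 2-fold. The mature and hairpin ratios of acetaminophen liver lie left of the 0.5 line for both members, while those of miR-191 in hepatocytes with acetaminophen lie near 1.

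Since both members come from 1 locus and scaling cancels in their ratio, the ratio of miR-191 to miR-425 was taken within each column. By hairpin counts it was 6.85 in control hepatocytes (95% interval 6.52 to 7.19), 12.7 with acetaminophen (11.1 to 14.6) and 6.46 with G-CSF added (5.56 to 7.54). In liver it was 8.25 (8.02 to 8.48), 4.38 (3.78 to 5.10) and 6.84 (6.60 to 7.09). The acetaminophen column was thus the highest of 3 in hepatocytes and the lowest of 3 in liver, with intervals apart from the other columns of the same material in both. The G-CSF column had an interval that overlapped the control's in hepatocytes and lay below it in liver.

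The mature counts gave higher ratios and wider intervals. In hepatocytes the ratio was 12.2 (9.15 to 16.7), 35.3 (13.5 to 131) and 12.1 (5.64 to 31.1), and in liver 20.8 (17.4 to 25.1), 11.1 (6.73 to 19.4) and 16.1 (12.9 to 20.0). The order of the columns was that of the hairpins in both materials, but the intervals of the acetaminophen columns overlapped those of the other columns of their material. In control serum exosomes the ratio was 14.0 (4.47 to 70.6) by mature and 6.37 (5.22 to 7.84) by hairpin counts. A change in this ratio shows that the members changed unequally between columns and does not say which of them did.

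**Figure D3:**
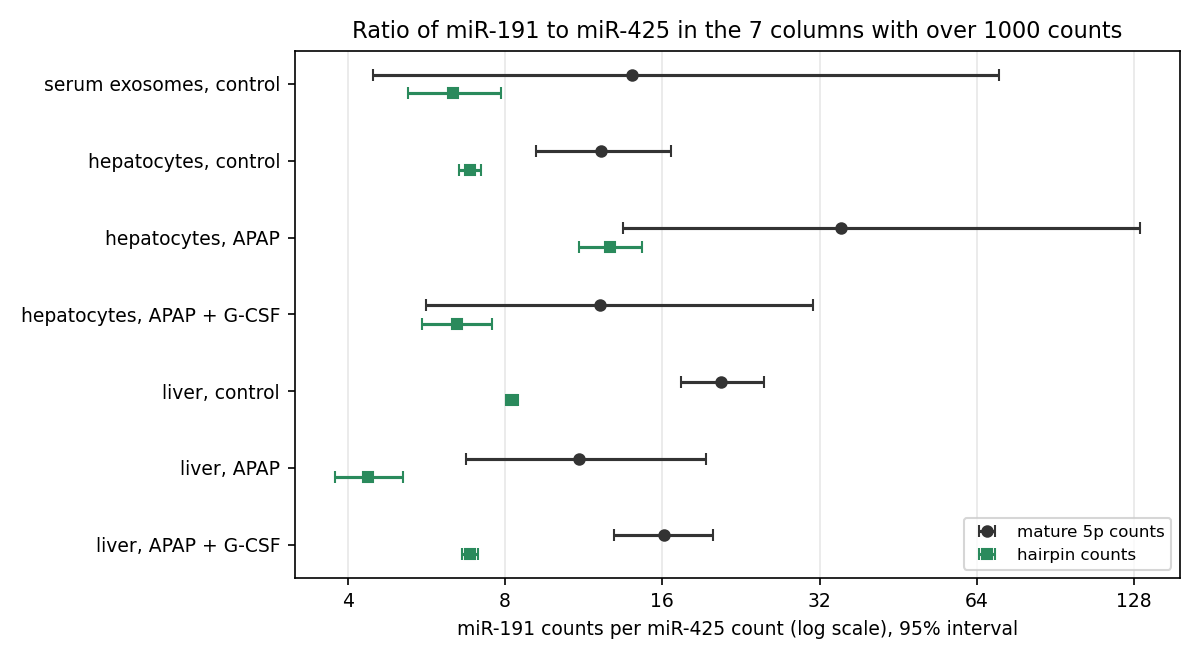
Counts of miR-191 per count of miR-425 in the 7 columns with over 1000 mature counts, on a log axis, with exact 95% intervals; circles are mature 5p counts and squares hairpin counts. By hairpins the acetaminophen column is the highest of the hepatocyte columns at 12.7 and the lowest of the liver columns at 4.38.

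Liver and hepatocytes were also compared at the same treatment, after TMM scaling over those 6 columns; doses were given per body weight in one and as concentrations in the other, so the treated values are set side by side only. In the controls miR-191-5p was 1.71-fold higher in liver (1.57 to 1.88), and by column totals its log2 ratio was 1.20. These values use the liver level by which the pair was chosen and are a description. In the same columns miR-425-5p was 1.01-fold higher in liver (0.721 to 1.43). With acetaminophen miR-191-5p was 3.77-fold lower in liver than in hepatocytes (3.01 to 4.72), and with G-CSF added it was 1.05-fold higher (0.843 to 1.32). MiR-425-5p was 1.18-fold lower (0.290 to 3.63) and 1.26-fold lower (0.491 to 2.70) in those columns, with equality inside both intervals.

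The 6 columns were then fitted together with edgeR's quasi-likelihood test, treatments standing in as samples of a material and materials as samples of a treatment, with 2 residual degrees of freedom and Benjamini-Hochberg adjustment over 114 miRNAs. For acetaminophen against control the log2 difference was -1.01 (SE 1.37, adjusted p = 0.932) for miR-191-5p and -1.32 (SE 0.99, adjusted p = 0.660) for miR-425-5p in this edgeR fit. No miRNA passed (0%), while 11 had an unadjusted p under 0.05 and DESeq2 called 3, neither member among them. For G-CSF added against acetaminophen alone the edgeR values were 0.57 (SE 1.31) and 1.16 (SE 1.03), both with adjusted p = 0.992. There 0% passed, 0 had an unadjusted p under 0.05 and DESeq2 called 0.

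Against control, the columns with both agents gave log2 differences of -0.45 (SE 1.30) and -0.16 (SE 0.96), both with edgeR adjusted p = 0.988, where 0.877% of the miRNAs passed. Between liver and hepatocytes miR-425-5p differed by -0.52 (SE 0.81, edgeR adjusted p = 0.681), where 12.3% of the miRNAs passed. MiR-191-5p differed by -0.69 (SE 1.11), given without a test. The standard errors were as large as most of these differences. The fit thus leaves room for changes of more than 2-fold, for most of them in either direction. A response that differs between the materials enters these errors. For miR-191-5p the log2 ratios of acetaminophen to control were -2.30 in liver and 0.28 in hepatocytes.

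Whether the treated columns differed from control unequally in liver and hepatocytes was tested with an interaction term in edgeR, added after the data had been seen. The interaction was -1.68 on the log2 scale (SE 1.19, adjusted p = 0.454) for miR-191-5p and -0.47 (SE 1.37, adjusted p = 0.880) for miR-425-5p. For the hairpins it was -0.67 (SE 1.17, adjusted p = 0.796) and 0.24 (SE 1.28, adjusted p = 0.940). Of the 114 mature miRNAs, 1.75% passed with a higher and 9.65% with a lower interaction, and of 284 hairpins 3.52% and 4.93%. A difference between the materials in the response of the pair was therefore not shown by this test, in which both treated columns of a material counted as its samples.

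Because miR-191-5p is used as a reference in quantitative PCR, it was set beside 14 other miRNAs used that way, 13 of them measured in acetaminophen against control liver. The list had 1 call higher (miR-451a, 37.4-fold) and 1 lower (miR-103-3p, 6.02-fold lower), with a median log2 ratio of -0.08, against -0.25 over all miRNAs. MiR-16-5p and miR-24-3p, for example, had ratios of 0.920 (0.799 to 1.05) and 0.946 (0.809 to 1.10). MiR-191-5p at 0.203 and miR-425-5p at 0.381 lay below 12 of the 13, and miR-103-3p, at 0.166, lay below both. In hepatocytes with acetaminophen 8 of the 14 were measured, 1 called higher (miR-30e-5p, 2.05-fold) and 2 lower (miR-103-3p and let-7a-5p), with a median of -0.28 against -0.47 over all.

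**Figure D4:**
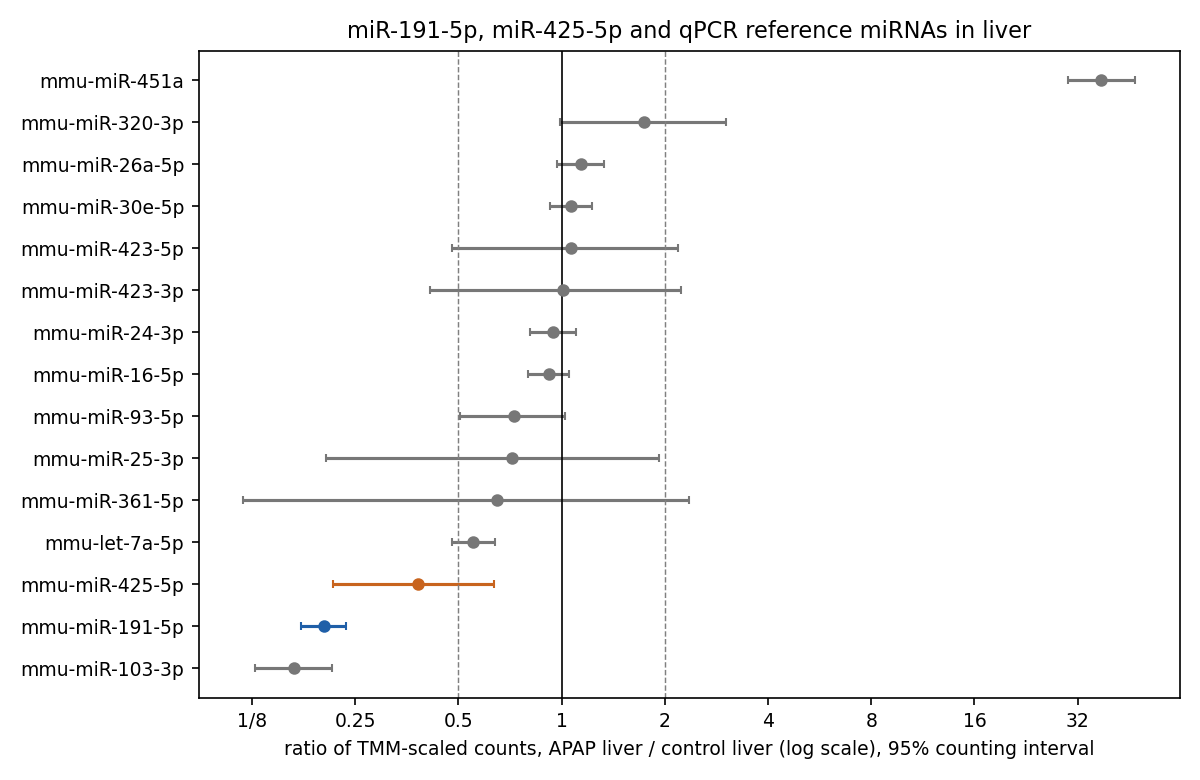
Ratio of acetaminophen liver to control liver for miR-191-5p (blue), miR-425-5p (orange) and the 13 measured reference miRNAs (grey), on a log axis with exact 95% counting intervals and dashed lines at 2-fold. Most reference miRNAs lie between the dashed lines, miR-191-5p lies at 0.203 and miR-425-5p at 0.381.

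The spread of shares was taken with 0.5 added to each count. The share of miR-191-5p then varied 8.07-fold over the 7 deep columns, with an SD of 1.03 on the log2 scale. Among the 13 miRNAs with at least 10 counts in each of those columns it was the sixth steadiest, near their median SD of 1.04. MiR-16-5p had an SD of 0.865 and miR-320-3p one of 1.26. MiR-425-5p, which was outside those 13 through its low counts, had an SD of 0.829 and varied 4.74-fold. Over the 6 hepatocyte and liver columns the SD was 0.822 for miR-191-5p, rank 9 of 36, and 0.661 for miR-425-5p, while miR-30e-5p was the steadiest at 0.559.

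By pattern over the 7 deep columns, each member was nearer to the other than to any of the candidates with enough counts (12 for miR-191-5p and 13 for miR-425-5p, miR-191-5p included). Log2 counts with 0.5 added were scaled to column totals and centred on each miRNA's own mean. The members then differed by 0.526 (root mean square), where the median distance from miR-191-5p to 12 other miRNAs was 1.45. The next nearest to miR-191-5p were miR-140-3p (0.799), miR-130a-3p (1.02), miR-484 (1.07), miR-130c (1.10) and miR-195a-5p (1.37). Next nearest to miR-425-5p were miR-484 (0.819) and miR-140-3p (0.903). These distances rest on columns that share treatments and depth, and are a description.

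MiR-489-3p, which has the seed of miR-425-5p, had 29, 56 and 19 counts in hepatocytes and 70, 12 and 34 in liver, in the order control, acetaminophen and acetaminophen plus G-CSF. After TMM scaling it was 10.2-fold higher than control in hepatocytes with acetaminophen (6.38 to 16.5) and called, where 26.0% of 100 miRNAs were called higher. MiR-425-5p, on 4 counts, was 2.38-fold lower there with an interval that included equality. The share of miR-489-3p in that column was 1.05%, against 0.0751% for miR-425-5p, while in the controls it was the rarer one, at 0.108% in hepatocytes and 0.142% in liver. In hepatocytes with both agents miR-489-3p was 4.41-fold higher than control (2.3 to 8.1) and called, where 23.0% of 100 were called higher. In acetaminophen liver it was 2.08-fold lower on 12 counts (1.12 to 4.23) and called, the direction of miR-425-5p, where 27.3% of 161 were called lower. With G-CSF added it was at 1.03 of acetaminophen liver (0.518 to 2.18), not called. Against control it was then 2.03-fold lower (1.33 to 3.16) and called, where 12.8% of 172 were called lower. MiR-425-5p was 1.91-fold higher and 1.38-fold lower in those comparisons, neither called.

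**Figure D5:**
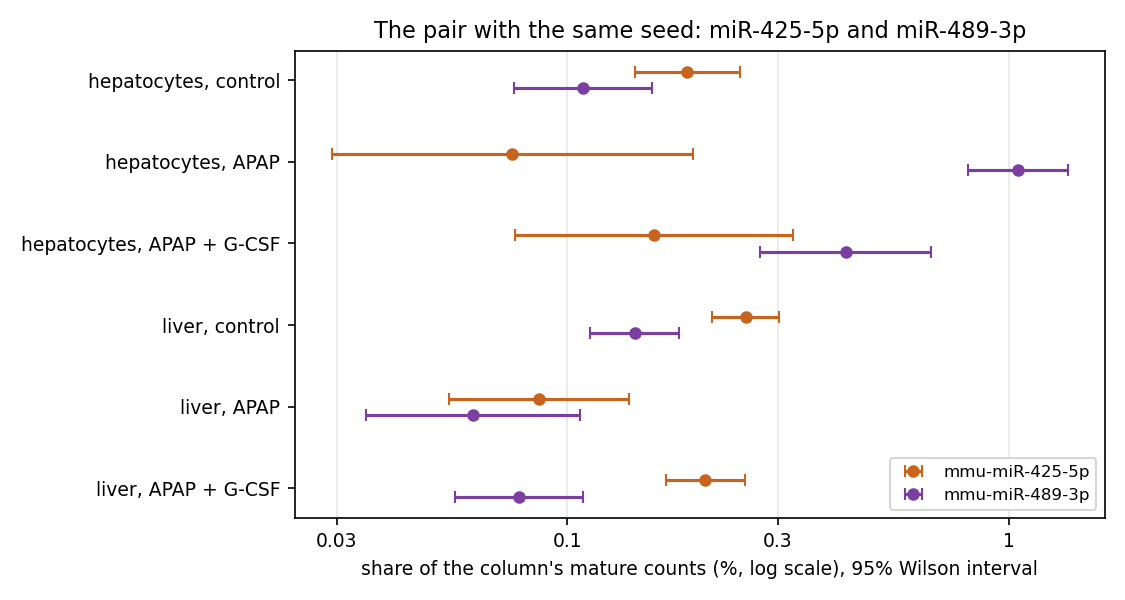
Share of mature counts of miR-425-5p (orange) and miR-489-3p (purple), which have the same seed, in the hepatocyte and liver columns, on a log axis with 95% Wilson intervals. In hepatocytes with acetaminophen miR-489-3p, at 1.05%, lies above miR-425-5p at 0.0751%, and in control liver it lies below.

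In exosomes the pair was seen in control serum alone among the mature columns. There miR-191-5p had 42 counts (0.645%, interval 0.477 to 0.870, rank 14) and miR-425-5p 3 (0.0460%). As shares of the totals these were 8.16-fold (6.02 to 11.4) and 5.50-fold (1.84 to 27.1) lower than in control liver, and 3.54-fold (2.59 to 4.97) and 4.06-fold (1.31 to 20.4) lower than in control hepatocytes. The hairpins, with 720 and 113 counts, were 8.87-fold and 6.85-fold lower than in control liver. The red blood cell markers made up 6.10% of that serum column, against 0.193% in control liver, and their part in the levels of the pair was not tested.

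The treated serum columns had 0 counts of both mature members. That allows a miR-191-5p share of up to 0.688% with acetaminophen and 0.434% with G-CSF added, so a share as in control serum, 0.645%, lies under the former limit and above the latter. For miR-425-5p these limits lie far above the 0.0460% of control serum, and a change was not detectable at this depth. The hairpin table gave 0 counts of both with acetaminophen, and 1 of mir-191 and 2 of mir-425 with G-CSF added. The 1 count of mir-191, in 4026 hairpin counts, was 15.99-fold lower than in control serum (2.86 to 633), and the mir-425 ratio had an interval that included equality. Other miRNAs were also scarce in the treated serum columns. The 14 reference miRNAs summed to 8.63% of mature counts in control serum, 0.229% with acetaminophen and 0.0723% with both agents, and the red blood cell markers had 0 counts in both treated columns. Hairpin counts per mature count were 27.8, 1.06 and 5.82. The part of these features in the low counts of the pair was not tested. If the titles are right about these columns, the values of the treated columns are exchanged.

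The 3 hepatocyte exosome columns had 0 counts of both members in the mature and in the hairpin table. With totals of 335, 91 and 47 mature counts, miR-191-5p shares of up to 0.896%, 3.30% and 6.38% were allowed. In the latter columns these limits exceed its share in the hepatocytes that received the same treatment, and only in the control, where hepatocytes had 2.29%, was the limit lower. Other miRNAs were also scarce in that control exosome column. The 3 hepatocyte markers summed to 1 count (0.299%), against 18.25% in control hepatocytes, and the 14 reference miRNAs to 2 counts. Hairpin counts per mature count were 2.72, against 31.4 in control hepatocytes. The part of these features in the 0 counts of the pair was not tested. MiR-191-5p in hepatocyte exosomes of the treated cultures was not detectable at this depth.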

How the data were processed

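The authors deposited estimated counts (expected counts) per miRNA, unscaled, in a mature and a hairpin table of 12 columns, 1 per condition, per the file headers. RNA was isolated with a Norgen kit and libraries were made with the Ion Total RNA-Seq Kit, per the labels' protocols, and each condition was listed for 2 Ion Torrent instruments. Not given in the sources used here were the aligner, the build and the division of shared reads. Columns were matched to conditions by name, with 0 left unmatched. Counts were rounded to whole numbers for TMM factors and tests. Factors were computed within a material from miRNAs with at least 10 counts in 1 of its columns (edgeR 4.0.16, R 4.3.3), and ratios carry exact conditional (Clopper-Pearson) 95% intervals. The edgeR fit used the 6 hepatocyte and liver columns, with miRNAs of at least 10 counts in at least 3 columns, and an adjusted p threshold of 0.05. DESeq2 1.42.0, column totals, no filter, hairpin counts and left-out columns were alternatives. In exosomes column totals were used. Zero counts were given a limit of 3 counts. The labels do not say whether samples came from separate animals or cultures. In the fit of material and treatment, p-values weigh a difference against how unequal the treatment differences were between the materials, not against replicates. In the interaction fit they weigh it against the spread between both treated columns of a material. Technical spread may be part of either. Intervals cover counting error only, since the reads had no molecular identifiers. The fit and the intervals were tested on simulated data. For the fit those data held no response that differed between the materials, so they do not show how it behaves where one is present. Named miRNAs were the pair, its 3p arms, seed partners, 14 PCR reference miRNAs and the 5 nearest patterns. Members and lists were chosen with earlier results of these data known.

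For the treated serum columns the titles and the column names give G-CSF the other way round from the treatment characteristic that was used.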

Additional observations from a re-analysis of the deposited data

How the results depend on the processing

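The lower miR-191-5p and miR-425-5p of acetaminophen liver, and the higher miR-191-5p with G-CSF added, kept direction and call under column totals, DESeq2 size factors, no filter, hairpin counts, and scaling with both leading miRNAs (miR-122-5p, miR-30c-5p) left out. Values below are log2 ratios. In hepatocytes with acetaminophen against control, miR-191-5p turned to -0.29 without the filter and -0.25 by hairpins, while miR-425-5p became a call at -1.81 and -1.15. In hepatocytes with both agents against control, miR-191-5p turned to 0.56 with DESeq2 size factors and 0.12 with the leading miRNAs left out, and miR-425-5p to 0.57 and 0.13. MiR-425-5p in G-CSF against acetaminophen liver became a call at 1.25 by column totals and 1.21 without the filter. Between control liver and control hepatocytes miR-191-5p was at 1.20 by column totals, above 2-fold, given as a description. Between liver and hepatocytes, miR-425-5p turned in the controls to -0.27 (DESeq2 size factors) and -0.038 (without both leading miRNAs), with acetaminophen to 0.20 (totals), 0.21 (no filter) and 0.092 (hairpins), and with G-CSF to 0.38 (totals) and 0.72 (hairpins). MiR-191-5p with G-CSF turned to -0.13 (DESeq2 size factors) and -0.034 (without both leading miRNAs). In the edgeR fit of liver against hepatocytes miR-191-5p turned to 0.073 without the control columns and 0.29 without the acetaminophen columns, and miR-425-5p to 0.13 without the filter and 0.013 by hairpins. The cause of these turns was not tested. Without the control columns miR-425-5p was under the filter and had no value. Exchanging the treated serum columns exchanges their 0 counts, so it gave no ratio. No paired analysis was possible because each condition had 1 column and the columns carried no replicate numbers, while the edgeR treatment contrasts had material as a term. Depth limited the exosome columns and miR-425-5p in treated hepatocytes, at 4 and 7 counts.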
